A study of Mus musculus with 6 samples.

Results

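The colony stimulating factors and CC chemokines are secreted proteins that call up, feed and steer myeloid cells and lymphocytes. Here 10 such genes were followed in 4T1 mouse mammary carcinoma cells with and without LINC01133, a human long noncoding RNA. They were taken by symbol from a table of 31854 rows: Csf1, Il34, Csf2 and Csf3 on the growth factor side, and Ccl2, Ccl7, Ccl5, Ccl9, Ccl20 and Ccl28 among the chemokines. All 10 were found. The 3 control libraries came from 4T1 cells with an empty pLVX vector, given as WT in the labels, and the 3 LINC01133 libraries from 4T1 cells with pLVX-LINC01133, given as overexpression. Every library was made from total RNA of cultured cells with no other treatment named, and 4T1 is described as malignant cells. Nothing in the labels tells whether the groups share their parental cells, whether a line is a clone or whether libraries are separate cultures, so "rose", "fell" and "with LINC01133" only compare the groups, and p-values cover the spread among these libraries alone, possibly a technical one.

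As background, CSF1 and IL-34 are the ligands of the receptor CSF1R, on which monocytes and macrophages depend. CSF3 (G-CSF) drives neutrophil production and release through CSF3R, and CSF2 (GM-CSF) acts on granulocytes, macrophages and dendritic cells. CC chemokines share a pair of adjacent cysteines and act through G protein-coupled receptors: CCL2 and CCL7 draw monocytes through CCR2, CCL5 draws T cells and monocytes through receptors that include CCR1, CCL20 acts on CCR6 and CCL28 on CCR10. In the 4T1 mammary tumour model, tumour-derived CSF3 is known for the expansion of neutrophils in the host.

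Total counts were 25521469 to 27035127 in the controls and 26719396 to 33877549 with LINC01133. The number of rows with 10 counts or more was 12404 to 12464 per control library and 14078 to 14491 per LINC01133 library. Levels are given in CPM, counts divided by TMM-scaled library size, as the group mean ± SD with n = 3, and a positive log2 fold change means higher with LINC01133, by edgeR's quasi-likelihood test with Benjamini-Hochberg adjustment over all 14116 genes tested. A gene with an adjusted p under 0.05 is called. The groups differed in most genes: 84.9% of tested genes were called, 6280 higher (44.5%) and 5710 lower (40.5%), or 7847 and 4228 by library size alone. That scaling moved the median over all tested genes (log2 fold change) from 0.05 to 0.29. With a 2-fold limit added these shares were 20.3% and 13.9%. Among the members, 5 were called higher and 1 lower, and the other 4 lay below the count filter and were not tested. The LINC01133 libraries all lay above the controls for 8 members and below them for 1, and the groups overlapped for 1. Of tested genes, 85% had groups that did not overlap, with LINC01133 above in 44.5% and below in 40.5%. Csf2, Ccl7 and Ccl20, among the 8, were not tested, and the share for rows with as few counts is given further below. Against a background of 84.9%, a call by itself sets no member apart, and the sizes below carry the description. Of the 6 that were tested, Csf1, Il34 and Csf3 met the filter in the control libraries too, while Ccl2, Ccl5 and Ccl9 passed through the group in which they were high.

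The cells were checked against 10 epithelial markers, of which 6 were called higher with LINC01133 and 3 lower of 9 tested. Among the 6, Epcam, Cdh1 and Cldn7 lay below the filter of 0.372 CPM in the controls. They were tested through the LINC01133 group, where they were high. Among the 3, Krt5 and Krt14 lay below the filter with LINC01133 and were tested through the controls. Krt8 was at 145 CPM in the controls and 217 CPM with LINC01133, and Krt18 at 2.06 and 158 CPM. Epcam had no read in the controls and 78 counts over the LINC01133 group, and Cdh1 had 4 and 138 counts, so these defining epithelial genes were at or near 0 in the control group. The keratin genes Krt5, Krt14 and Krt7 went the other way, 6.46-fold, 7.30-fold and 3.27-fold lower. Markers of other cell types also moved with the groups. The 12 leukocyte markers summed to 17.7 to 17.9 CPM in the controls and 36.2 to 36.6 CPM with LINC01133, with 4 called higher (Cd68, Cd14, Itgam and Cd79a) and 2 lower (Lyz2 and Laptm5) of 7 tested. Cd79a lay below the filter in the controls and Lyz2 below it with LINC01133, so each was tested through the group where it was high. Cd68 stood at 2.21 and 10.2 CPM and Cd14 at 9.66 and 16.0 CPM while Itgam had 90 and 659 counts per group. In contrast, Lyz2 had 135 counts in the controls and 13 with LINC01133 and Laptm5 120 and 55. Ptprc (CD45) had 5 and 18 counts per group, Adgre1 0 and 23, and Tyrobp none. The 7 endothelial markers summed to 0.791 to 1.19 and 16.8 to 17.1 CPM, with Cdh5 at 0 and 1 counts. All 4 that were tested were called higher, but Pecam1, Tek and Egfl7 lay below the filter of 0.372 CPM in the controls. They were tested through the LINC01133 group, where they were high. Esam lay below that filter in control replicate 3 and was likewise tested through the LINC01133 group. The 9 fibroblast markers summed to 169.0 to 174.7 and 20.9 to 21.2 CPM. Most of that sum was Pdgfrb, at 107 and 0.775 CPM, and Pdgfra, at 60.2 and 13.6 CPM, while Dcn had 1 and 409 counts, Fap 0 and 140, and Lum none (2 higher and 3 lower of 5 tested). The 2 called higher, Dcn and Fap, lay below the filter in the controls and were also tested through the LINC01133 group. The part of these markers in the ligand results was not tested. In bulk RNA, a change in the number of cells that make a ligand and a change in its RNA per cell cannot be told apart.

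**Figure D1:**
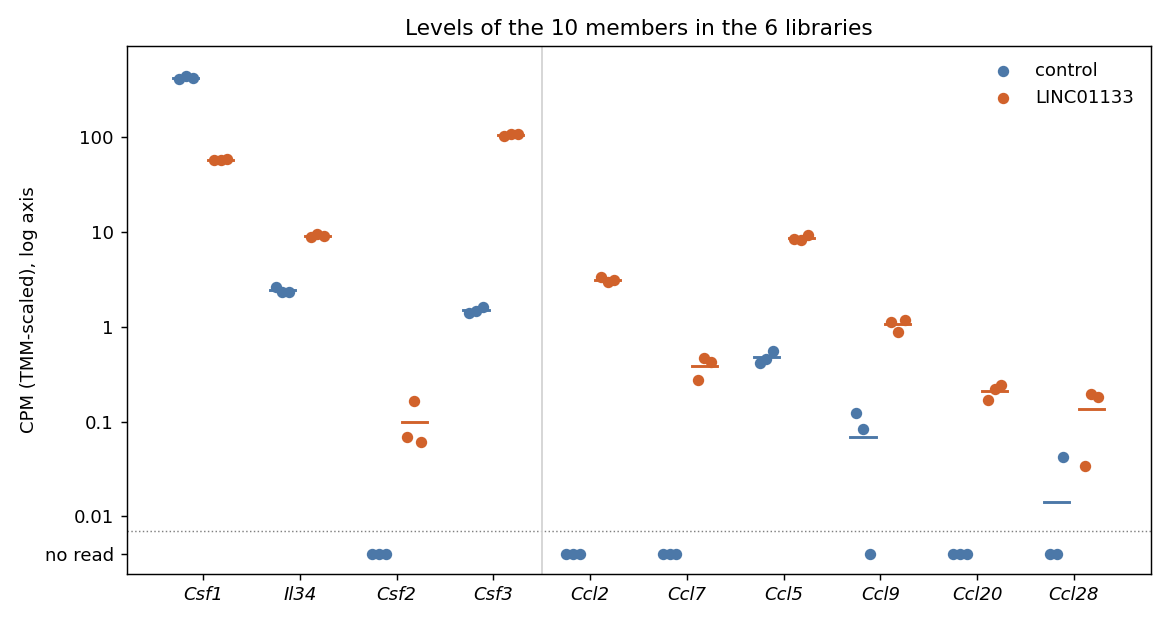
Level of each member in CPM (TMM-scaled, log axis) in the 3 control and the 3 LINC01133 libraries. Points are libraries, short lines are group means, and libraries with no read are drawn on the row marked so. Csf1 is the member whose LINC01133 libraries lie below the controls, Ccl28 is the member whose groups overlap, and the other 8 lie above with LINC01133.

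The clearest pattern was an exchange of the leading colony stimulating factor. Csf1 fell, to a level 7.23-fold lower, while Csf3 rose 70.2-fold and Il34 3.77-fold, and Csf2 had few reads. Per kilobase of the row's length, Csf1 made up 97.3% ± 0.172 of the summed level of these 4 genes in the controls and 12.6% ± 0.280 with LINC01133, and Csf3 made up 1.24% ± 0.108 and 82.1% ± 0.278 (SD, n = 3). These shares do not depend on how libraries were scaled. The summed level itself, by TMM, was 85.7, 91.2 and 86.9 CPM per kb in control cells against 90.0, 95.6 and 95.6 in LINC01133 cells. By that scaling the groups overlapped in the sum while its makeup differed between the groups in each library. Unlike the shares, the sum depends on the scaling. The TMM factors were 0.903 to 0.935 in the controls and 1.07 to 1.10 with LINC01133. By library size alone, each LINC01133 sum lies above each control sum.

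Csf1 (uc008qxk.2, chromosome 3, 107741048 to 107760469 on mm10, minus strand) encodes the macrophage growth factor. The controls held 9840, 10345 and 9591 counts of it and the LINC01133 libraries 1657, 2075 and 1930. In CPM this was 403.3, 430.7 and 409.3 against 56.3, 57.2 and 58.3, so that each LINC01133 library lay far below each control. The mean fell from 414.5 ± 14.4 to 57.3 ± 1.02 CPM (SD, n = 3), with a log2 fold change of -2.85 (SE 0.0281; adjusted p = 4.1e-123 by edgeR). In the controls Csf1 stood above 98.5% of tested genes in CPM, and with LINC01133 above 75.3%. Its log2 fold change was undercut by 511 of the 14116 genes. The spread between control libraries, 3.48% of the mean, was larger than the 1.00% expected from counting alone.

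The promoter of Csf1 is shown because Csf1 is the member called lower, and that of Ccl9 because it is the only member called higher that had an upstream window. Csf2, Ccl20 and Ccl28 had a window too but were not tested. The sequences are the 250 bases before the RefSeq transcript start on GRCm38.p6, written 5′ to 3′ on the gene's strand in lower case. Of the 10 members 5 had such a window. Capitals mark matches, on either strand, to the NF-kappaB consensus, to AP-1 (TGANTCA), to C/EBP (TTGCNNAA), to the TATA box (TATAAA) and to the GC box (GGGCGG). The Csf1 window is chr3:107760470-107760719, minus strand, and the Ccl9 window is chr11:83578637-83578886, minus strand.
Csf1: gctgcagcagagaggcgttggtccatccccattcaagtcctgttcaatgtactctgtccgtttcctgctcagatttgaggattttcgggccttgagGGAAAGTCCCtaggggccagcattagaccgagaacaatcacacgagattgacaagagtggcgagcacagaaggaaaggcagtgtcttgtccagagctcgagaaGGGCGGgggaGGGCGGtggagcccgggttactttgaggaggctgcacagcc
Ccl9: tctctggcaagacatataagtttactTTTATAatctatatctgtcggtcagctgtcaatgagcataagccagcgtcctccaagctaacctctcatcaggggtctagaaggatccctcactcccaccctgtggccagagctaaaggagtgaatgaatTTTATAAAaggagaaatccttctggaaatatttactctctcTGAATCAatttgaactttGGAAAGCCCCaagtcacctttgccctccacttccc

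The falling and the rising gene shared a match to the NF-kappaB consensus, GGAAAGTCCC at 154 to 145 bases before the start in Csf1 and GGAAAGCCCC at 35 to 26 bases before it in Ccl9. The Csf1 window also held 2 GC boxes, 10 CpG and 56.4% G and C. The Ccl9 window held an AP-1 match, 3 TATA box matches, of which 2 overlap each other, and 43.6% G and C with 2 CpG. Ccl20 held a NF-kappaB consensus match (GGAAAACCCC), Csf2 a C/EBP match and a GC box, and Ccl28 a GC box. Over all 32851 RefSeq windows, 7.25% held the NF-kappaB consensus, 6.75% AP-1, 9.56% C/EBP, 12.4% the TATA box and 32.7% the GC box. A match describes letters in this window and is not a binding site.

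Il34 (uc009nkz.3, chromosome 8, 110741829 to 110805924, minus strand), the other CSF1R ligand, went the other way. Its levels were 2.62, 2.29 and 2.30 CPM in control cells against 8.80, 9.38 and 9.03 CPM in LINC01133 cells, with no overlap. The mean rose from 2.41 ± 0.188 to 9.07 ± 0.291 CPM, with a log2 fold change of 1.91 (SE 0.129; adjusted p = 2.9e-29 by edgeR). Per kb, both ligands together stood at 86.9 ± 2.91 CPM in the controls and 16.7 ± 0.305 with LINC01133, and the share of Il34 in that sum went from 1.49% ± 0.155 to 29.2% ± 0.625. Exons of Il34 overlap the antisense genes Gm15894 and Gm15895 in GENCODE M21, and whether counting used the strand is not given in the sources used here, so reads of Il34 and these genes cannot be told apart.

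Csf3 (uc007lgy.1, chromosome 11, 98701263 to 98703629, plus strand), the gene of G-CSF, had 34, 35 and 38 counts in control cells against 2951, 3883 and 3547 in LINC01133 cells. In CPM, control libraries stood at 1.39, 1.46 and 1.62 and LINC01133 libraries at 100.2, 107.1 and 107.2. The transcript was thus present at a low level in each control library and among the more abundant ones in each LINC01133 library. Its mean rose from 1.49 ± 0.118 to 104.8 ± 3.98 CPM, with a log2 fold change of 6.13 (SE 0.0758; adjusted p = 7.9e-111 by edgeR). It stood above 23.6% of tested genes in the controls and above 87.5% with LINC01133. A higher log2 fold change was found for 567 genes. Of 5 protein-coding genes within 50 kb of Csf3, 3 were tested and none was called at least 2-fold higher. The other 2, Gsdma2 and Gsdma, had 0 and 6 counts in the controls and 19 and 23 with LINC01133 and were not tested. The nearest, Med24, a Mediator subunit gene 962 bases away, fell by 0.18 on the log2 scale, and the proteasome gene Psmd3 fell by 0.36; Med24 was chosen after its value was seen, as were the other neighbours named outside the chemokine clusters.

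Csf2 (uc007ixm.1, chromosome 11, 54247271 to 54249667, minus strand), the gene of GM-CSF, had no read in any control and 2, 6 and 2 counts with LINC01133. Its 10 counts put it at least 2.42-fold above a floor of 3 counts over the control group, and Csf2 was not tested for lack of counts. Il3, the cytokine gene 15636 bases away, had no read in the 6 libraries. Exons of Csf2 overlap the antisense gene Gm12223, with the same limit as for Il34.

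**Figure D2:**
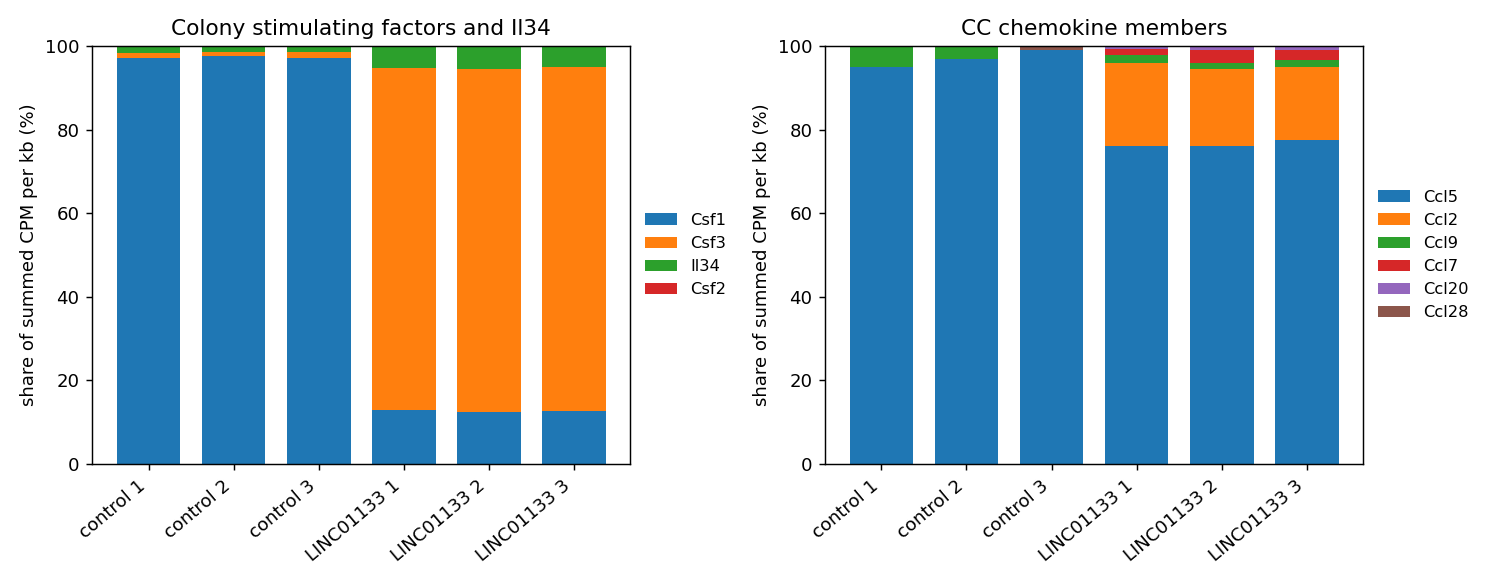
Share of each gene in the summed CPM per kb of the 4 colony stimulating factor genes (left) and of the 6 CC chemokine members (right), in percent, with 1 bar per library. Csf1 holds over 97% of the left sum in the controls and Csf3 over 81% with LINC01133, and Ccl5 holds the largest part of the right sum in both groups.

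Among the 6 chemokine members the level was low in the controls and higher with LINC01133, and Ccl5 led these 6 in both groups. The 6 genes summed to 0.920 ± 0.124 CPM per kb in the controls, of which Ccl5 made up 96.9% ± 1.97, and to 21.0 ± 1.22 with LINC01133, of which Ccl5 made up 76.6% ± 0.821 and Ccl2 18.5% ± 1.24 (SD, n = 3). Ccl5 (uc007kpi.2, chromosome 11, 83525778 to 83530518, minus strand), also known as RANTES, had 10, 11 and 13 counts in control cells against 246, 292 and 304 in LINC01133 cells. Control libraries stood at 0.410, 0.458 and 0.555 CPM and LINC01133 libraries at 8.36, 8.05 and 9.19 CPM, without overlap. The mean rose from 0.474 ± 0.0738 to 8.53 ± 0.587 CPM, or 17.9-fold, with a log2 fold change of 4.16 (SE 0.189; adjusted p = 8.1e-45 by edgeR) and 1015 genes showing a higher log2 fold change.

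Ccl2 (uc007kmp.1, chromosome 11, 82035571 to 82037453, plus strand) encodes the monocyte chemoattractant MCP-1. It had no read in any control and 97, 107 and 103 counts with LINC01133, which are 3.29, 2.95 and 3.11 CPM. The 3 libraries lay close together at 3.12 ± 0.172 CPM (SD, n = 3), at least 74.4-fold above a floor of 3 counts over the control group (adjusted p = 1.7e-30 by edgeR). Ccl7 (uc007kmq.2, chromosome 11, 82045712 to 82047525, plus strand), another CCR2 ligand that lies 8259 bases beyond Ccl2, likewise had no control read. It had 8, 17 and 14 counts with LINC01133, or 0.272, 0.469 and 0.423 CPM, and its 39 counts were at least 9.45-fold above the same floor, below the count filter. When any control library or LINC01133 replicate 1 was left out, Ccl7 passed the filter and was called higher (adjusted p = 1.0e-07 to 9.3e-06 by edgeR). With no control read, it passed only through the LINC01133 libraries, in which it was high. In these runs 6228 to 6379 of 14345 to 14554 tested genes were called higher.

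Ccl9 (uc007kpj.1, chromosome 11, 83572919 to 83578636, minus strand) encodes a macrophage inflammatory protein of mice that acts on CCR1. Control libraries held 3, 2 and 0 counts of it and LINC01133 libraries 33, 32 and 39. The groups did not overlap, at 0 to 0.123 CPM and 0.883 to 1.18 CPM. The mean rose from 0.0687 ± 0.0628 to 1.06 ± 0.157 CPM, with a log2 fold change of 3.84 (SE 0.507; adjusted p = 1.2e-11 by edgeR). The exact 95% interval of the ratio was 6.28 to 47.6, which covers counting error only. With 5 control counts in all, the log2 fold change was 4.51 without control replicate 1 and 3.29 without control replicate 3.

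Ccl20 and Ccl28, ligands of CCR6 and CCR10 at epithelial surfaces, stayed below the count filter. Ccl20 (uc007bsk.2, chromosome 1, 83116766 to 83119167, plus strand) had no control read and 5, 8 and 8 counts with LINC01133, at least 5.09-fold above the floor. Ccl28 (uc007sal.1, chromosome 13, 119623819 to 119654359, plus strand) had 0, 0 and 1 counts in control cells against 1, 7 and 6 in LINC01133 cells, a ratio of 10.2 with an exact 95% interval of 1.55 to 430.5, and its groups overlapped in CPM. Such low counts were more often found with LINC01133 across the whole table. Of the 2914 rows with 10 to 39 counts over the 6 libraries, the range of Csf2, Ccl7, Ccl20 and Ccl28, 50.1% had LINC01133 libraries that all lay above the controls and 8.85% the reverse, and 28.7% had no control read against 1.51% with no LINC01133 read. The counts and bounds of the 4 low members are read against that background.

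In order of level per kb, the controls had Csf1 at 85.6 ± 2.98 CPM per kb, then Il34 at 1.29 ± 0.101, Csf3 at 1.09 ± 0.0863 and Ccl5 at 0.893 ± 0.139, and the others at 0.0229 or less. The libraries of Csf3 and Ccl5 overlapped in that order. With LINC01133 the order was Csf3 at 76.9 ± 2.92, Ccl5 at 16.1 ± 1.10, Csf1 at 11.8 ± 0.210, Il34 at 4.88 ± 0.157 and Ccl2 at 3.87 ± 0.214 CPM per kb. Below them came Ccl7 at 0.485 ± 0.129 and Ccl9 at 0.353 ± 0.0522, which overlapped, then Ccl20 at 0.148 ± 0.0260 and Csf2 at 0.0948 ± 0.0567, which overlapped as well, and Ccl28 at 0.0364 ± 0.0237 (SD, n = 3).

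**Figure D3:**
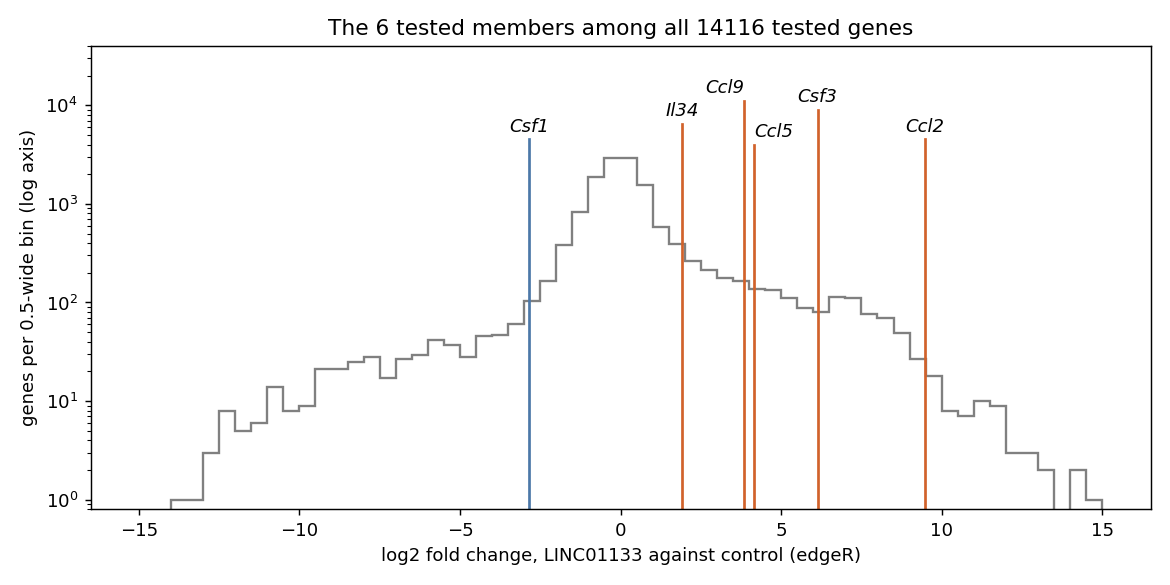
Number of tested genes in each 0.5-wide bin of the log2 fold change (grey outline, log axis), with vertical lines at the 6 tested members. Csf1 lies at -2.85 and the other 5 between 1.91 (Il34) and 9.47 (Ccl2); the value of Ccl2, which had no control read, is fitted with a prior count and is no measured fold.

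Of the 10 members 6 lie on chromosome 11, and the chemokines there fall into a pair of clusters in which neighbours differed in level. In the cluster of Ccl2, the genes Ccl11, Ccl12, Ccl8 and Ccl1, which follow Ccl7, had no read in any of the 6 libraries, so reads were confined to the first 2 genes of these 6. In the cluster of Ccl5 and Ccl9, Ccl6 had 1 count in the controls and 6 with LINC01133, Ccl3 had 0 and 3, and Ccl4, a macrophage inflammatory protein gene, had 0 and 31. The 3, 12 and 16 counts of Ccl4 with LINC01133 were at least 7.51-fold above the floor, in the range where 28.7% of rows had no control read, and the gene was not tested. Heatr9, which lies 3603 bases from Ccl5, was called higher (log2 fold change 1.91, adjusted p = 5.4e-08 by edgeR), and Taf15, 19035 bases from Ccl5 on the same side, lower (-0.50). The control mean of Heatr9, 0.361 CPM, lay below the filter of 0.372 CPM. Heatr9 was thus tested through the LINC01133 group, in which it was high (1.37 CPM).

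**Figure D4:**
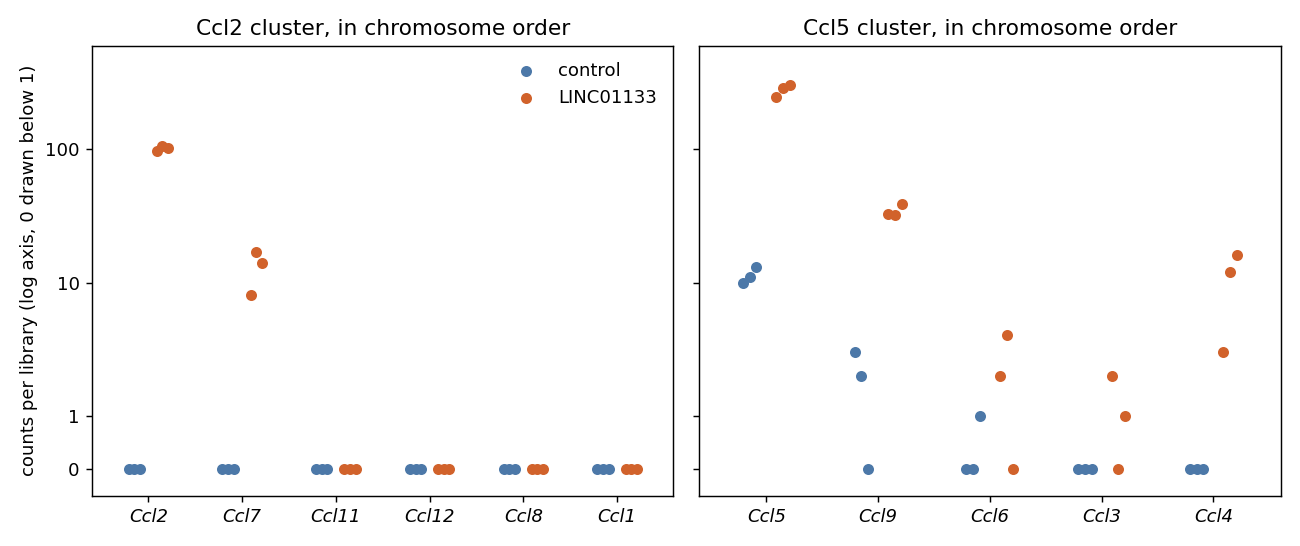
Counts per library (log axis, with 0 drawn below 1) of the chemokine genes in their order along chromosome 11. In the left cluster Ccl2 and Ccl7 have reads with LINC01133 and the other 4 genes have none, and in the right cluster Ccl5 and Ccl9 lead.

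Most of the rest of the CC chemokine family had few reads or none. Even so, these genes summed to 1.84 to 2.46 CPM in the controls, above the 0.533 to 0.597 CPM of the 6 members. With LINC01133 they summed to 3.83 to 4.52 CPM, below the 12.8 to 14.3 CPM of the members. Of 17 further symbols 14 were found and 7 of these had no read, with 1 tested. That gene was Ccl25, a thymus and gut chemokine, which rose from 1.91 ± 0.334 to 3.61 ± 0.420 CPM (log2 fold change 0.91, adjusted p = 7.6e-07 by edgeR). Ccl17, a CCR4 ligand, had 13 and 15 counts per group.

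Receptors for these ligands were low in both groups. Csf1r had 11, 7 and 14 counts in control cells against 23, 34 and 38 in LINC01133 cells. Its mean rose from 0.447 ± 0.153 to 0.956 ± 0.184 CPM, with a log2 fold change of 1.10 (SE 0.338, adjusted p = 0.0019 by edgeR). Control replicate 2, at 0.291 CPM, lay below the filter of 0.372 CPM, so Csf1r was tested through the LINC01133 group, in which it was high. Csf3r, the receptor for the factor that rose most among the 4, had no control read and 6, 12 and 8 counts with LINC01133, at least 6.30-fold above the floor, in the range of 10 to 39 counts where 28.7% of rows had no control read. Csf2ra had 1 and 3 counts per group, Csf2rb had 0 and 13 and its close copy Csf2rb2 had 0 and 15, and reads could be split between the last 2. Csf2rb and Csf2rb2 lie in the same range of counts as Csf3r. Sdc1 (syndecan-1), a surface proteoglycan that also binds IL-34, was the abundant member of the receptor list and rose from 96.0 ± 1.81 to 110.3 ± 2.48 CPM (log2 fold change 0.20). Of 14 CC chemokine receptors 2 were tested and called higher, and both lay below the filter in the controls, so that they were tested through the group in which they were high. Ccr10, the CCL28 receptor, had 2 counts in the controls and 55 with LINC01133, with an exact 95% interval of the ratio of 5.28 to 169.3, and Ccrl2, an atypical receptor, rose from 13 to 156 counts per group (log2 fold change 3.09). Ccr1, Ccr2 and Ccr6 had no control read and 21, 23 and 25 counts with LINC01133, in the range where 50.1% of rows had LINC01133 libraries above the controls.

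Enzymes that release or trim these ligands changed by smaller amounts. Adam17, the protease that sheds membrane CSF1, rose from 87.5 ± 1.16 to 113.9 ± 1.68 CPM (log2 fold change 0.38, adjusted p = 5.2e-22 by edgeR) and Adam10 rose by 0.59. Rhbdf2, which encodes iRhom2, a partner that ADAM17 needs to mature, fell from 71.5 ± 3.21 to 25.4 ± 1.16 CPM (-1.49). Rhbdf1 was lower by TMM (-0.12) and called higher by library size alone (0.12). Dpp4, the peptidase that trims chemokines, had 3 and 12 counts.

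Signalling genes below the CSF2 and CSF3 receptors moved in both directions, with 7 of 14 called higher and 6 lower (median log2 fold change 0.14, against 0.05 over all tested genes), or 8 and 4 by library size alone. Jak2, the kinase bound to these receptors, rose from 41.1 ± 1.16 to 103.1 ± 2.35 CPM (log2 fold change 1.33) while Jak1 fell from 257.8 ± 1.36 to 155.7 ± 3.91 CPM (-0.73). Socs2, a feedback inhibitor, rose from 3.22 ± 0.175 to 16.7 ± 1.57 CPM (2.38), and the ubiquitin ligase gene Cblb rose by 1.10.

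RNA-binding proteins that act on cytokine mRNAs also split, with 7 of 11 higher and 3 lower (median 0.21). Khsrp, which promotes decay of AU-rich mRNAs, fell from 534.2 ± 8.08 to 240.8 ± 3.89 CPM (log2 fold change -1.15) and Zfp36l2, a relative of tristetraprolin, from 384.4 ± 10.9 to 176.3 ± 4.47 CPM (-1.12). Arid5a, which stabilises Il6 mRNA, rose to 51.5 ± 1.68 CPM (1.78), and Rc3h2, a roquin gene, rose by 0.71.

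A list of NF-kappaB and IRF1 transcription factors with the inhibitors and kinases of the NF-kappaB pathway had 5 of 13 called higher and 6 lower (median -0.13, or 0.12 by library size alone, the opposite sign). Of the factor genes, Rela, Relb and Irf1 were called higher and Nfkb1 and Rel lower. Tnfaip3 (A20), an inhibitor that NF-kappaB itself induces, rose from 15.4 ± 0.505 to 175.6 ± 2.13 CPM (log2 fold change 3.51, adjusted p = 4.1e-113 by edgeR), and the inhibitor gene Nfkbia rose by 0.91. The kinase gene Chuk fell from 169.5 ± 6.71 to 60.0 ± 1.22 CPM (-1.50) and Nfkb1 from 225.3 ± 3.39 to 109.5 ± 3.58 CPM (-1.04). In a list of inflammatory ligands, their receptors and the adaptors and kinase Myd88, Traf6 and Irak1, 6 of 13 were higher and 3 lower (median 0.16), or 9 and 2 by library size alone. Il1a and Il6, among the 6, lay below the filter in the controls. Il1r1, the interleukin-1 receptor gene, rose from 1.93 ± 0.275 to 27.4 ± 0.704 CPM (3.82) and Il17ra from 33.2 ± 1.15 to 77.5 ± 0.633 CPM (1.22), whereas Tnfrsf1a fell from 100.4 ± 1.06 to 61.5 ± 3.16 CPM (-0.70) and Tlr4 from 34.6 ± 1.51 to 24.0 ± 1.47 CPM (-0.53). Each of the lists of signalling genes, RNA-binding proteins, the NF-kappaB pathway, and inflammatory ligands, receptors and adaptors held calls in both directions.

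**Figure D5:**
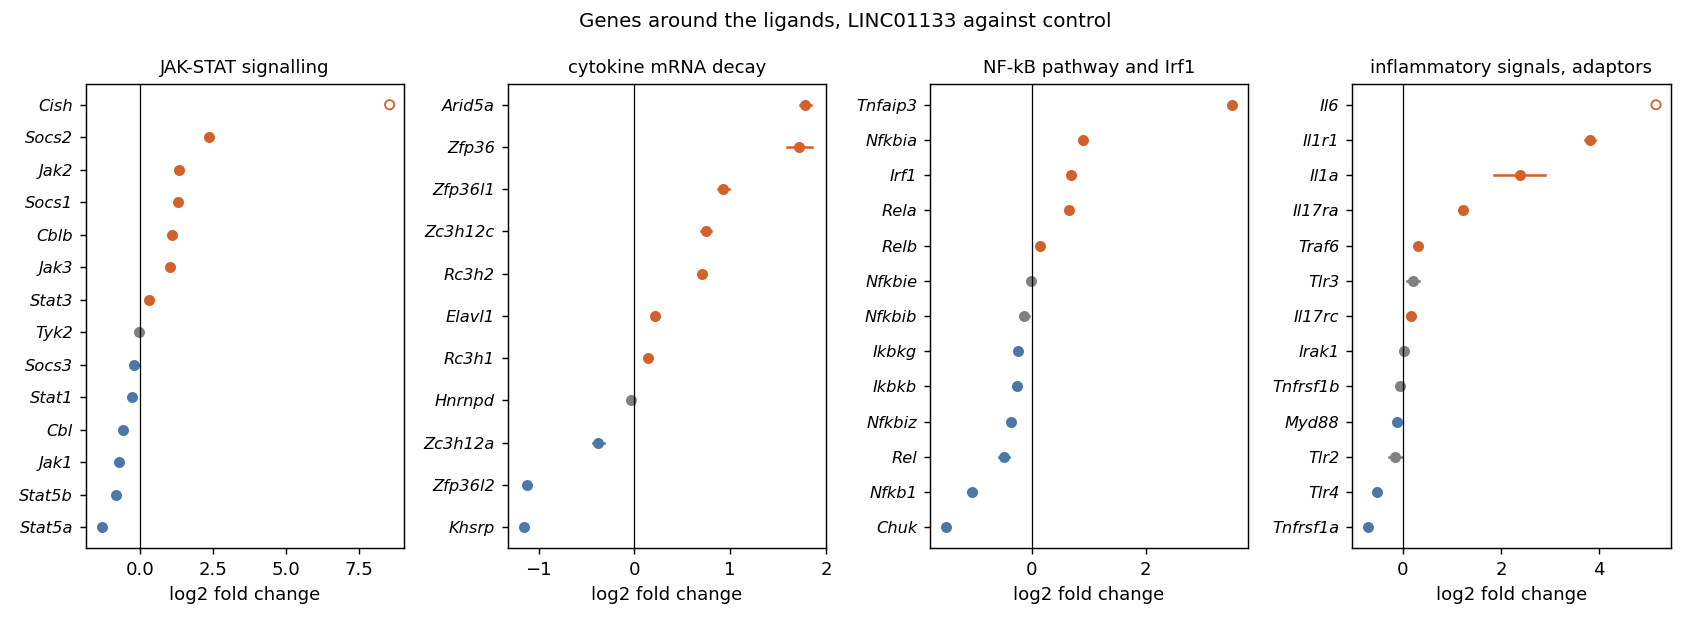
Log2 fold change (LINC01133 against control) of the tested genes in 4 lists around the ligands, with bars of ±1 SE. Orange was called higher, blue lower and grey not called, and open circles are genes with 3 counts or fewer in a group, for which no SE is drawn. Each list holds genes on both sides of 0.

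The patterns most like those of the leading members over the 6 libraries were found by the distance between log2(CPM + 0.5) values centred on each gene's mean, among 11994 other genes whose mean reached 1 CPM. With 6 libraries in 2 groups this likeness mostly ranks genes by the size of the group difference. Among the nearest to Csf1 were Ccnd2, Npas3, Gpt2 and Dhcr7, at distances of 0.0836 to 0.127; Npas3 had 260 and 7 counts per group, so its nearness depends on the 0.5 added to the CPM, and Ccnd2 went from 454.6 to 63.3 CPM. Nearest to Csf3 were Sdc3, Arrdc4, Espn, Efemp2 and Zfp518b, at distances of 0.224 or less; Arrdc4 had no control read and Espn and Zfp518b 1 each, so their nearness depends on the 0.5 added to the CPM.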

How the data were processed

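Per the file headers, the authors deposited raw counts, 1 row per transcript or gene, each with its UCSC identifier, symbol and length. Libraries were Illumina TruSeq from total RNA, per the labels' protocols, and the submitters' processing notes name mm10 and bcl2fastq. For the aligner, the counter, the annotation version and the strand setting, the entry is: not given in the sources used here. Of rows sharing a symbol, that of highest mean count carries it here. The LINC01133 transcript and the symbols Nfkb2, Cebpb and Cebpd are not analysed here, so the level of LINC01133 is no check of the labels. Some genes that the naming rule gives are not reported here.

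The test was edgeR 4.0.16 (R 4.3.3, glmQLFit with robust dispersions, glmQLFTest, TMM, filterByExpr) on the deposited counts of all 6 samples, grouped by title, checked on simulated data. The simulation changed only a small set of genes, in random directions. It therefore does not check the scaling or the calls where most genes differ, as they do here. Replicate pairs differed by a chi-square of 1.61 to 2.32 per degree of freedom, above sampling noise. Floors are 3 counts over a group, and the bounds from them leave out the counting error of the other group. Exact 95% intervals of ratios are Clopper-Pearson and cover counting error only. For Ccl2, Ccl7, Ccl20 and Csf2 the exact lower limits of the ratio were 60.2, 7.33, 3.79 and 1.63, below the bounds from the floor. Members and gene lists were chosen with earlier results of these data known. All 10 members are named, up to 4 called genes per other list by smallest p with at least 1 CPM in a group, the members' receptors and the chemokine clusters; epithelial and other markers and genes said to be so were chosen after their values were seen. Alternatives were other scalings, filters, a replicate block, leaving out each sample, no robust option, DESeq2 1.42.0, limma voom 3.58.1, leaving out Rn45s and stricter call rules. Positions are from GENCODE M21 and promoters from RefSeq (GRCm38.p6), of the same mouse assembly as mm10. Figures were drawn with matplotlib 3.10.9.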

Additional observations from a re-analysis of the deposited data

How the results depend on the processing

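The 6 tested members kept their direction and stayed past the threshold under each of the 16 alternatives, or 15 for Ccl9, which the filter of 1 CPM in 3 libraries removed. Their log2 fold changes ranged from -2.88 to -2.61 (Csf1), 1.87 to 2.16 (Il34), 6.08 to 6.38 (Csf3), 7.22 to 9.58 (Ccl2, lowest by limma voom), 4.06 to 4.40 (Ccl5) and 3.29 to 4.51 (Ccl9). Without a count filter 9 members were called higher, since Csf2, Ccl7, Ccl20 and Ccl28 were then tested (adjusted p = 0.019, 3.1e-07, 0.00028 and 0.031 by edgeR). Of the 22697 genes then tested, 7782 were called higher and 6055 lower. The added members lie in the range of 10 to 39 counts. In that range 50.1% of rows had LINC01133 libraries above the controls and 8.85% the reverse. Leaving out 1 sample gave 5 to 6 members higher and 1 lower. Over the whole table an added 2-fold limit left 2860 higher and 1959 lower genes, and leaving out 1 sample gave 6228 to 6379 and 5632 to 5669. The median of the NF-kappaB pathway list changed sign by library size alone (0.12). No pairing by replicate number was seen. The correlation of deviations was -0.0479 to -0.0157 for equal numbers and -0.00563 to 0.0478 for other numbers. With the replicate block 6188 genes were higher and 5629 lower, and the members' calls were 5 and 1. For Csf2, Ccl7, Ccl20, Ccl28 and most receptors, with few reads per library, the precision is limited by counting error.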

Other observations

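Some genes outside the rule for naming were picked after their values were seen. Cish, a feedback inhibitor that STAT5 induces, had no read in the controls and 48, 64 and 52 counts with LINC01133, at least 39.8-fold above a floor of 3 counts over the control group (adjusted p = 1.3e-20 by edgeR). It lay below the filter in the controls and was tested through the LINC01133 group, where it was high. Stat5a and Stat5b themselves fell, from 22.6 ± 1.29 to 9.21 ± 0.933 CPM (log2 fold change -1.29) and from 66.9 ± 2.90 to 37.6 ± 1.04 CPM (-0.83; SD, n = 3). Il6, a cytokine often made together with Csf3, had 2 counts in the controls and 113 with LINC01133, a ratio of 41.1 (exact 95% interval 11.1 to 343.4). Zfp36, which encodes tristetraprolin, rose by 1.72 on the log2 scale, opposite to its relative Zfp36l2. Ackr2, a scavenging receptor for inflammatory CC chemokines, had no control read and 3, 11 and 19 counts with LINC01133. It was not tested and lies in the range of 10 to 39 counts, where 28.7% of rows had no control read.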
